A study of Mus musculus with 24 samples.

Results

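The cytosolic ribosomal protein genes were followed across 24 RNA-seq libraries of a mouse pancreatic ductal adenocarcinoma (PDAC) line. A gene was included when its annotated biotype was protein coding and its symbol had the form Rpl or Rps with a number (with an a or x ending allowed) or P0 to P2, or was Rpsa, Rps3a1 or Fau. FPKM, a read level scaled by gene length and library size, had to reach 1 in at least 3 libraries. All 78 of the 78 matching genes among the 54532 listed genes met that level, and 12061 genes in all were tested. The 78 comprised 32 genes of the small subunit, 43 of the large subunit and the 3 stalk genes Rplp0, Rplp1 and Rplp2.

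All libraries came from the line HY19636, either Phgdh wild type (WT) or labelled Phgdh knockout (KO). Phgdh encodes phosphoglycerate dehydrogenase, which opens the pathway that makes serine from a glycolytic intermediate. Cells of each genotype were kept in medium with serine and glycine or in medium free of both, and either alone (monoculture) or with hepatocytes (coculture), which gave 8 groups of 3 libraries. The comparisons address how serine and glycine withdrawal acts in cells of each genotype, and how hepatocytes alter that response. The edited part of Phgdh, whether each genotype is 1 clone, and any step that parted cancer cells from hepatocytes before extraction were not given. Replicates carry numbers but no mention of separate cultures, so the spread behind each p-value, that among the 3 libraries of a group, may be technical.

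Ribosomal proteins join ribosomal RNA in the nucleolus to build the small subunit, which reads the mRNA, and the large subunit, which joins the amino acids. Cells make them in near equal numbers, and their mRNAs are among the most abundant in dividing cells. These mRNAs start with a run of pyrimidines at the 5′ end, the terminal oligopyrimidine (TOP) motif, through which mTORC1, a kinase complex that senses amino acids, is known to adjust their translation and stability.

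The libraries held 15740081 to 23479425 reads assigned to genes. Phgdh RNA served as a check of the labels, although the edited part is not known. Its level was 483 ± 96.6 FPKM in KO against 922 ± 16.6 in WT monocultures with serine and glycine (SD, n = 3 each). The KO minus WT difference on the log2(FPKM + 1) scale was -0.95 there (adjusted p = 1.85e-06), -0.57 in coculture with serine and glycine (0.000504) and -0.88 in coculture without (3.13e-06). In monoculture without serine and glycine the KO libraries were at 695 ± 68.6 and the WT libraries at 800 ± 15.5, a difference of -0.21 that did not pass (adjusted p = 0.115), and no KO library was near 0. All 8 epithelial PDAC markers were above 0 in every group, although Epcam stayed between 0.0262 and 1.30 FPKM and Muc1 was at 0.873, 0.731 and 1.04 FPKM in the KO monocultures without serine and glycine. The summed level of the 8 was 1641 to 1877 FPKM in KO monocultures with serine and glycine and 4398 to 4599 without; the part of that difference in the results was not tested. Of 15 hepatocyte markers only 2 reached 1 FPKM in any library, and Serpina1a, Serpina1b, Cyp2e1, Fgb, Fga, Ahsg and Tat were at 0 in all 24, cocultures included. Replicate 1 of the KO monocultures with serine and glycine stood apart from its group: its mitochondrially encoded genes took 2.92% of reads against 2.11 and 2.33%, and several ribosomal protein genes were far from the other 2 libraries. Several results that rest on it, though not all, are also given without it.

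Together the 78 genes took 9.72 ± 0.0988% of gene reads in WT monocultures with serine and glycine (SD, n = 3). The 3 KO monocultures without serine and glycine were at 4.91, 5.44 and 5.29%, below all 21 other libraries. KO monocultures with serine and glycine were at 8.40, 9.68 and 9.27%, where the first library was the lowest. KO cocultures without serine and glycine were higher, at 7.59, 7.21 and 7.21%, still below the 8.54, 8.48 and 8.49% of KO cocultures with serine and glycine. The starved KO groups, as those without serine and glycine are called here, overlapped neither each other nor the KO groups with both amino acids. WT libraries varied less. They held 9.75, 9.60 and 9.79% with and 9.12, 9.42 and 8.77% without serine and glycine in monoculture, and 8.42, 8.55 and 8.87% with and 9.10, 8.71 and 8.52% without in coculture. With serine and glycine, each WT monoculture was thus above each WT coculture, at means of 9.72 and 8.61%. Without both amino acids the WT cultures overlapped. The largest Wilson 95% interval around a library's share reached 0.0141 percentage points to either side, which covers counting error only. A share is relative: it cannot tell fewer ribosomal protein transcripts from more of the others, and in bulk RNA fewer cells of a type and less RNA per cell cannot be told apart.

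**Figure D1:**
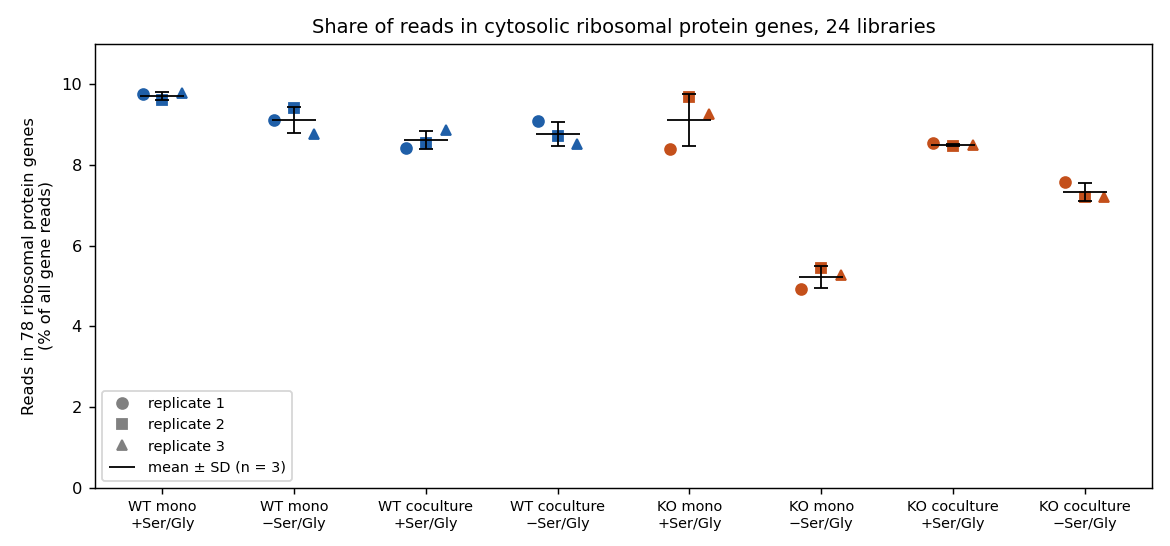
Percent of each library's gene reads assigned to the 78 ribosomal protein genes (y axis, starting at 0) in the 8 groups (x axis), with 1 point per library and bars for mean ± SD (n = 3). The KO monocultures without serine and glycine sit between 4.91 and 5.44%, below every other library, and the KO cocultures without serine and glycine sit between 7.21 and 7.59%.

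All 3 subunit classes took a smaller share in that group. From WT monocultures with serine and glycine to starved KO monocultures, small-subunit genes went from 4.14 to 2.07% of reads, large-subunit genes from 4.77 to 2.62% and stalk genes from 0.808 to 0.532%. Set gene by gene against the mean FPKM of WT monocultures with serine and glycine, the median member stood at 56.4% in starved KO monocultures, with the middle of the distribution from 43.0 to 65.2%, and at 78.5% in starved KO cocultures. The medians of the other 5 groups lay between 92.8 and 95.8%. In 50 of the 78 genes (64.1%) all 3 starved KO monocultures were below the 21 other libraries, which held for 21% of all tested genes. Rpl34 alone had all 3 above the others, where 23.5% of tested genes did. Few members set another group apart in this way: Rpsa, Rpl3, Rpl10a and Rps24 had all 3 WT monocultures with serine and glycine above the other libraries (1.1% of tested genes did), and Rps23, Rpl6, Rpl22 and Rpl30 had all 3 KO monocultures with serine and glycine (1.74%). Fau was highest in KO cocultures (2.88%) and Rpl39 in WT cocultures (1.14%), both with serine and glycine.

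As levels per length, Rplp1 was the highest member with a mean of 3991 FPKM over the 24 libraries, followed by Rplp0 (3008), Rps3a1 (2387), Rpl4 (1513) and Rps2 (1497). The median member was at 498 FPKM, and 40 of the 78 were among the 100 highest genes of the table. Lowest were Rpl24 (0.674 FPKM, at or above 1 in 4 libraries) and Rps10 (1.58), then Rpl21 (66.7), Rpl13a (74.1) and Rps15a (105). Ribosomal protein genes have many processed pseudogenes, near copies to which reads can be assigned instead, so the levels of members with such copies are uncertain. The table lists 289 such copies of 59 members. They held 98.9% of the reads of Rps10 and its copies together, 75.4% for Rpl17, 47.2% for Rpl21, 20.98% for Rpl14, 14.8% for Rpl23a, 14.4% for Rpl31, 13.6% for Rps16 and 10.2% for Rpl7a. No source here gives how reads with several matches were counted.

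Within a group, the SD of a member's log2(FPKM + 1) over its 3 libraries had a median of 0.130 across members, close to the 0.124 of all tested genes. It ran from 0.0327 for Rpl6 to 0.658 for Rps27a. Above 0.3 were 8 members, Rps27a, Rpl17 (0.560), Rps28 (0.502), Rpl21, Rps29, Rpl7a, Rpl30 and Rplp1 (0.302). Differences in these genes are therefore the least certain.

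Withdrawal of serine and glycine in KO monoculture gave the broadest fall. By limma's moderated test over all tested genes, 62 of the 78 members fell and 1 rose at an adjusted p under 0.05, where 70.8% of all tested genes were called, 34.5% lower and 36.2% higher. The median member changed by -0.78 on the log2(FPKM + 1) scale, whereas the median of all tested genes stayed between -0.02 and 0.01 in every comparison. The fall exceeded 1.5-fold in 52 of the called members. In 58 members all 3 libraries without serine and glycine were below all 3 with, against 33% of tested genes. The fall passed in 24 of 32 small-subunit genes, 37 of 43 large-subunit genes and 1 of 3 stalk genes. Without replicate 1 of the KO monocultures with serine and glycine, 72 members fell and 1 rose, with a median of -0.86. Other comparisons that use the starved KO monocultures share those 3 libraries, so their values are given side by side and are not separate evidence.

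**Figure D2:**
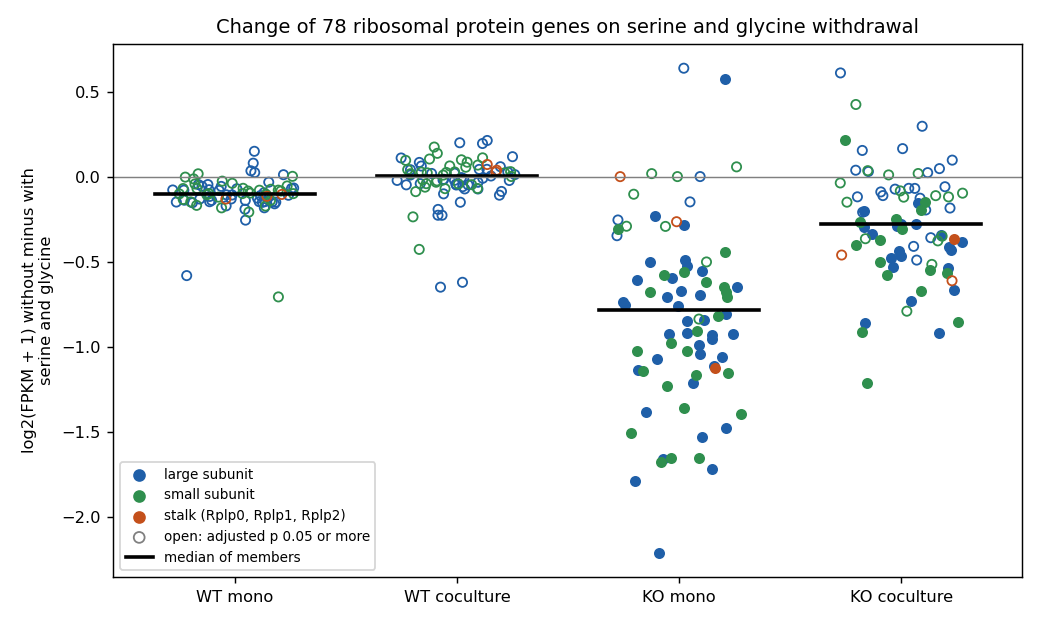
Change of each ribosomal protein gene on serine and glycine withdrawal, as log2(FPKM + 1) without minus with (y axis), in WT and KO monoculture and coculture (x axis). Each point is 1 of 78 genes, coloured by subunit, filled where the adjusted p is under 0.05, and the black bar is the median. The KO monoculture points centre on -0.78 with 62 filled below 0, the KO coculture points on -0.28 with 36, and neither WT column has a filled point.

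Among small-subunit genes, Rps15 in the head of the subunit had the largest called fall. It was at 736, 1570.3 and 1426 FPKM in the KO monocultures with serine and glycine and at 282, 436 and 407 without (log2 change and its SE -1.68 ± 0.22, adjusted p = 1.19e-06). The first replicate was the lowest on both sides, and the groups did not overlap. Rps4x, whose gene lies at chrX:102184941-102189394, went from 1014, 955 and 953 FPKM to 327, 301 and 300.4 (-1.65 ± 0.05, adjusted p = 5.94e-16). Its libraries were tight in both groups, while all 12 WT libraries were higher still, at 1255 to 1451. Rps26, near the exit of the mRNA channel, went from 1455, 923 and 887 FPKM to 300.1, 364 and 348 (-1.65 ± 0.15, adjusted p = 7.71e-09). Without the first of its libraries with serine and glycine the change was -1.42. Rpsa, also known as the laminin receptor, went from 1181, 1196 and 1212 FPKM to 457, 471 and 469 (-1.36 ± 0.046, adjusted p = 3.31e-15). Fau, which encodes a ubiquitin-like protein fused to ribosomal protein S30, went from 1542, 1789.7 and 1681 FPKM to 543, 682 and 686 (-1.40 ± 0.092, adjusted p = 6.15e-11). In these 3 genes each starved library was below each library with serine and glycine. Rps6, the substrate of S6 kinase downstream of mTORC1, fell from 1431, 973 and 964 FPKM to 546, 530.2 and 550.1 (-1.02 ± 0.11, adjusted p = 6.02e-08). Its first replicate with serine and glycine was high, but the other 2 also lay far above the starved libraries. Rps3, at the entry of the mRNA channel, showed a smaller fall, from 304, 332 and 312 FPKM to 239, 269.9 and 256 (-0.31 ± 0.054, adjusted p = 4.24e-05).

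Large-subunit genes held the strongest falls. Rpl36a, part of the exit site for spent tRNA and located at chrX:134585654-134588062, had 289.6, 209.7 and 205 FPKM with and 55.5, 47.5 and 45.3 FPKM without serine and glycine (-2.21 ± 0.14, adjusted p = 2.87e-11). Rpl10 at chrX:74270812-74273135, a late-joining protein near the catalytic centre, had 743, 867 and 836 FPKM with and 245, 229 and 229 without (-1.79 ± 0.055, adjusted p = 6.64e-16). The starved KO libraries of both genes were below all others, and those of Rpl10 lay close together. Rpl37 dropped from 202, 273 and 214 to 62.2, 73.7 and 70.4 FPKM (-1.72 ± 0.12, adjusted p = 1.13e-10), and Rpl27a from 296, 394 and 348 to 98.8, 115 and 111 (-1.66 ± 0.078, adjusted p = 4.32e-13). Rpl41, a very short peptide, was at 534, 1156 and 1005 FPKM with and 278, 336 and 273 without (-1.53 ± 0.21, adjusted p = 2.87e-06), the first library again being lowest of those with serine and glycine. Rpl5 and Rpl11 form with 5S ribosomal RNA a particle that binds the p53 regulator Mdm2. They moved unequally: Rpl11 went from 278, 262 and 237 to 80.8, 97.9 and 98.8 FPKM (-1.48 ± 0.085, adjusted p = 7.88e-12), whereas Rpl5 went from 609, 491 and 503 to 397, 366 and 373 (-0.49 ± 0.069, adjusted p = 2.92e-06) and lost its call under quantile normalization, at -0.19 (adjusted p = 0.0839). Rpl3 near the peptidyl transferase centre changed by -1.12, Rpl22 by -1.39 and Rpl39 of the peptide exit tunnel by -0.99 (adjusted p = 4.69e-14, 8.95e-11 and 4.87e-08).

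Rpl34 at chr3:130726831-130730398, also of the large subunit, was the only member called higher. Its KO monocultures were at 277, 369 and 371 FPKM with and 570.0, 476 and 465 without serine and glycine (0.58 ± 0.10, adjusted p = 4.38e-05). The starved libraries were above all 21 others, which ran from 277 to 423. Without replicate 1 of both groups the change was 0.35 (adjusted p = 0.00109). Its 2 listed pseudogene copies held 8.78% of the reads of the gene and the copies together.

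In the stalk, which recruits elongation factors to the ribosome, only the base protein Rplp0 passed. It fell from 3899, 4456 and 4307 FPKM to 1798, 2022 and 1985 (-1.12 ± 0.06, adjusted p = 2.66e-12). Rplp1 was at 2041, 4893 and 4467 FPKM with and 2927, 3046 and 2885 without serine and glycine, and Rplp2 at 175, 373 and 342 with and 247, 331 and 274 without. In both, the first library with serine and glycine lay below all 3 starved libraries and the other 2 above them. Their changes were -0.26 and 0.000545 with all libraries, and -0.66 and -0.34 without that library, when both passed (the latter with adjusted p = 0.03).

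The 15 members that did not pass were Rplp1, Rplp2, Rpl8, Rpl13, Rpl17, Rpl18, Rpl36, Rps2, Rps7, Rps14, Rps16, Rps19, Rps27a, Rps28 and Rps29. Of these, 10 were called lower once replicate 1 of the KO monocultures with serine and glycine was left out, and no call was lost. Rps28 was at 65.6, 253 and 204 FPKM with and 60.0, 102 and 95.8 without (-0.84 ± 0.38, adjusted p = 0.0557), and at -1.43 without that library. The 5 that still did not pass were Rps2, Rps7, Rps19, Rps27a and Rpl17. Rps7, at 619, 542 and 567 FPKM with and 521, 619 and 612 without (0.018 ± 0.077, adjusted p = 0.845), and Rps2, at 1428, 1524 and 1506 and 1189, 1508 and 1475 (-0.10 ± 0.071, adjusted p = 0.202), overlapped between the groups. Rps19, a small-subunit assembly protein mutated in Diamond-Blackfan anaemia, was at 79.2, 185 and 165 FPKM with and 131, 147 and 142 without. Rps27a, a ubiquitin fusion protein, had libraries from 124 to 335 FPKM in the pair of groups, which left no detectable difference.

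**Figure D3:**
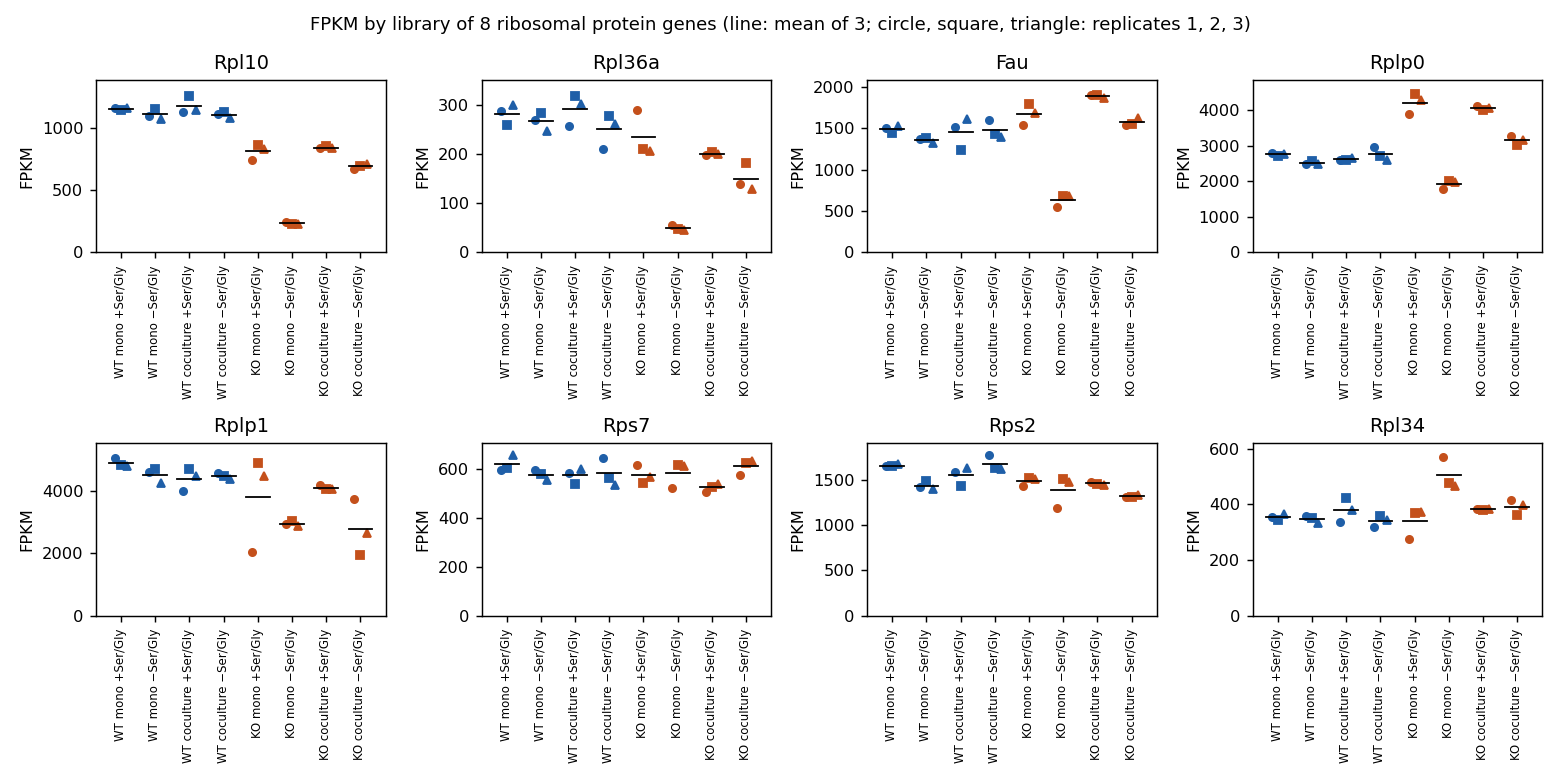
FPKM of 8 ribosomal protein genes in each library, by group (x axis), with each panel's y axis starting at 0, points for libraries and a line for the mean (n = 3). Rpl10, Rpl36a, Fau and Rplp0 are lowest in KO monocultures without serine and glycine, Rplp1 and Rps2 overlap neighbouring groups, Rps7 there overlaps other groups, and Rpl34 is highest there at 465 to 570.0 FPKM.

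Promoter sequences are shown for the genes with the 4 largest falls, of 3 genes that did not pass with all libraries, and of Rpl34, which rose. Each is 60 bases, from 45 before to 15 after the start listed in the RefSeq table of build GRCm38.p6, written 5′ to 3′ on the gene's strand. Capitals mark runs of 6 or more C or T, the letters of a TOP motif, anywhere in the window and not only at the start; the listed start may not be the one used in these cells.

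Rpl36a, chrX:134585609-134585668, plus strand: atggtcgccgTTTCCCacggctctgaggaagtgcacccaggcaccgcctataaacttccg
Rpl10, chrX:74270771-74270830, plus strand: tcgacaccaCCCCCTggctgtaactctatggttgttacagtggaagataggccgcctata
Rpl37, chr15:5116568-5116627, plus strand: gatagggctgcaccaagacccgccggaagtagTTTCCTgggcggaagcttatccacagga
Rps15, chr10:80292386-80292445, plus strand: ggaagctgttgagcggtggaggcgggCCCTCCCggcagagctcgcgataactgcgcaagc
Rplp2, chr7:141447606-141447665, plus strand: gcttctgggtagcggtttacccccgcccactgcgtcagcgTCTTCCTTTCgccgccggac
Rps7, chr12:28635939-28635998, minus strand: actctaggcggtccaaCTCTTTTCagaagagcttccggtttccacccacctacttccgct
Rps19, chr7:24884547-24884606, plus strand: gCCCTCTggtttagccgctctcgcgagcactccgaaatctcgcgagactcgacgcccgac
Rpl34, chr3:130730384-130730443, minus strand: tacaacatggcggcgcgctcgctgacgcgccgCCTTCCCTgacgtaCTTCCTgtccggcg

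All 8 windows hold such a run, both those of genes called lower with all libraries and those of genes not called lower. The table matched 58 of the 78 members, and 46 of these (79.3%) had a run in the 60 bases, against 51.8% of all 32851 promoters listed. Among matched members the run was in 77.6% of the 49 called lower on withdrawal in KO monoculture and in 88.9% of the other 9. Further strings were searched on both strands, with overlap between motifs allowed. CCGGAA, the core bound by ETS-family factors, was in the 300 bases (250 before to 50 after the start) of 29 of 58 members (50%) against 14.9% of all promoters. CTTTCC, a pyrimidine string, was in the 60 bases of 11 of 58 against 5.32%. These matches describe letters only.

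In KO coculture, withdrawal gave a smaller fall: 36 of 78 members fell and 1 rose, where 29.9% of tested genes were called, 14.4% lower and 15.5% higher. The median member changed by -0.28 and 8 of the called falls exceeded 1.5-fold. In 55 members the 3 starved libraries were below the 3 with serine and glycine, against 21.4% of tested genes. Rps28 of the small subunit was at 233, 229 and 221 FPKM with and 176, 58.0 and 90.2 without serine and glycine (-1.22 ± 0.38, adjusted p = 0.0218), and lost its call without replicate 2 of the starved cocultures (-0.85, adjusted p = 0.145), replicate 3 of these, or replicate 1 or 2 of those with serine and glycine. Rps29 changed by -0.91 (adjusted p = 0.0218) and lost its call without the same libraries (-0.72, adjusted p = 0.122, without that replicate 2). Replicate 2 was the lowest starved library in Rps28. Rpl41 was at 1080.3, 1065 and 1047 FPKM with and 775, 437 and 523 without (-0.92 ± 0.21, adjusted p = 0.00367), Rpl37a changed by -0.86 (adjusted p = 0.00431), and Rps15 by -0.85 (adjusted p = 0.00711), or by -0.67 without replicate 2 of the starved cocultures, when it did not pass (adjusted p = 0.0527). Genes with a small spread moved less, without overlap. Rpsa went from 1208, 1213 and 1234 to 975, 1052 and 1056 FPKM (-0.25 ± 0.046, adjusted p = 0.000621) and Rplp0 from 4136, 4019 and 4067 to 3289.8, 3034 and 3160.2 (-0.37 ± 0.06, adjusted p = 0.000177). Rps7, a small-subunit assembly protein, was called higher, at 509, 529 and 541 FPKM with and 577, 626 and 633 without (0.22 ± 0.077, adjusted p = 0.04), a call lost in 8 of 14 alternatives. Rps6 (0.036) and Rpl5 (0.098) did not pass. The number of calls leans on single libraries: 18 were called without replicate 1 of the cocultures with serine and glycine or replicate 3 of those without, 19 without replicate 2 of those without and 21 without replicate 2 of those with. Under quantile normalization 21 members fell and 4 rose, and with the replicate number as a block 32 fell and 0 rose. Mitochondrially encoded genes took 2.27, 2.75 and 2.76% of reads in the starved cocultures against 1.81, 1.84 and 1.88% with serine and glycine; the part of that difference in these results was not tested.

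No member was called in WT cells in either culture. In monoculture 0 of 78 members passed by limma, where 1.63% of all tested genes did (1.37% higher, 0.257% lower), although 15 had an unadjusted p under 0.05 and the median change was -0.10. In 39 members all 3 libraries without serine and glycine were below all 3 with, against 14% of tested genes. limma-voom on read numbers recovered from the FPKM also called 0. Rpl11 was at 252, 261 and 243 FPKM with and 222, 220.1 and 219.7 without (log2 change -0.19 ± 0.085, adjusted p = 0.364). Rplp0 was at 2813, 2709 and 2773 with and 2502, 2579.8 and 2491 without (-0.13 ± 0.06, adjusted p = 0.389). In both genes the groups did not overlap and the shift was small. In WT coculture 0 of 78 passed, 3 had an unadjusted p under 0.05, limma-voom called 0, and the median change was 0.00, with 0.738% of tested genes called (0.439% higher, 0.298% lower).

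The difference between genotypes in the response was itself tested. In monoculture, the withdrawal change in KO minus that in WT was called negative in 54 of 78 members and positive in 1, where 61.2% of tested genes were called (29.8% negative, 31.4% positive), with a member median of -0.69. Rpl36a had -2.13 ± 0.20, adjusted p = 1.71e-08, followed by Rpl37 (-1.74) and Rpl10 (-1.74), and Rpl34 had the 1 positive value (0.61 ± 0.14, adjusted p = 0.00111). In coculture 9 were called negative and 0 positive, where 14.4% of tested genes were called (6.38% negative, 8.06% positive), among them Rps15 (-1.03), Rpl27a (-0.48), Rpl10a (-0.47), Rplp0 (-0.44), Rpl11 (-0.43), Rpl9 (-0.36), Rpsa (-0.27) and Rpl6 (-0.26). Rps15 lost its call in 9 of 20 alternatives. The count of 9 was 27 without replicate 1 of the starved KO cocultures, and 5 without replicate 2 of the WT cocultures with serine and glycine or replicate 1 of those without.

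**Figure D4:**
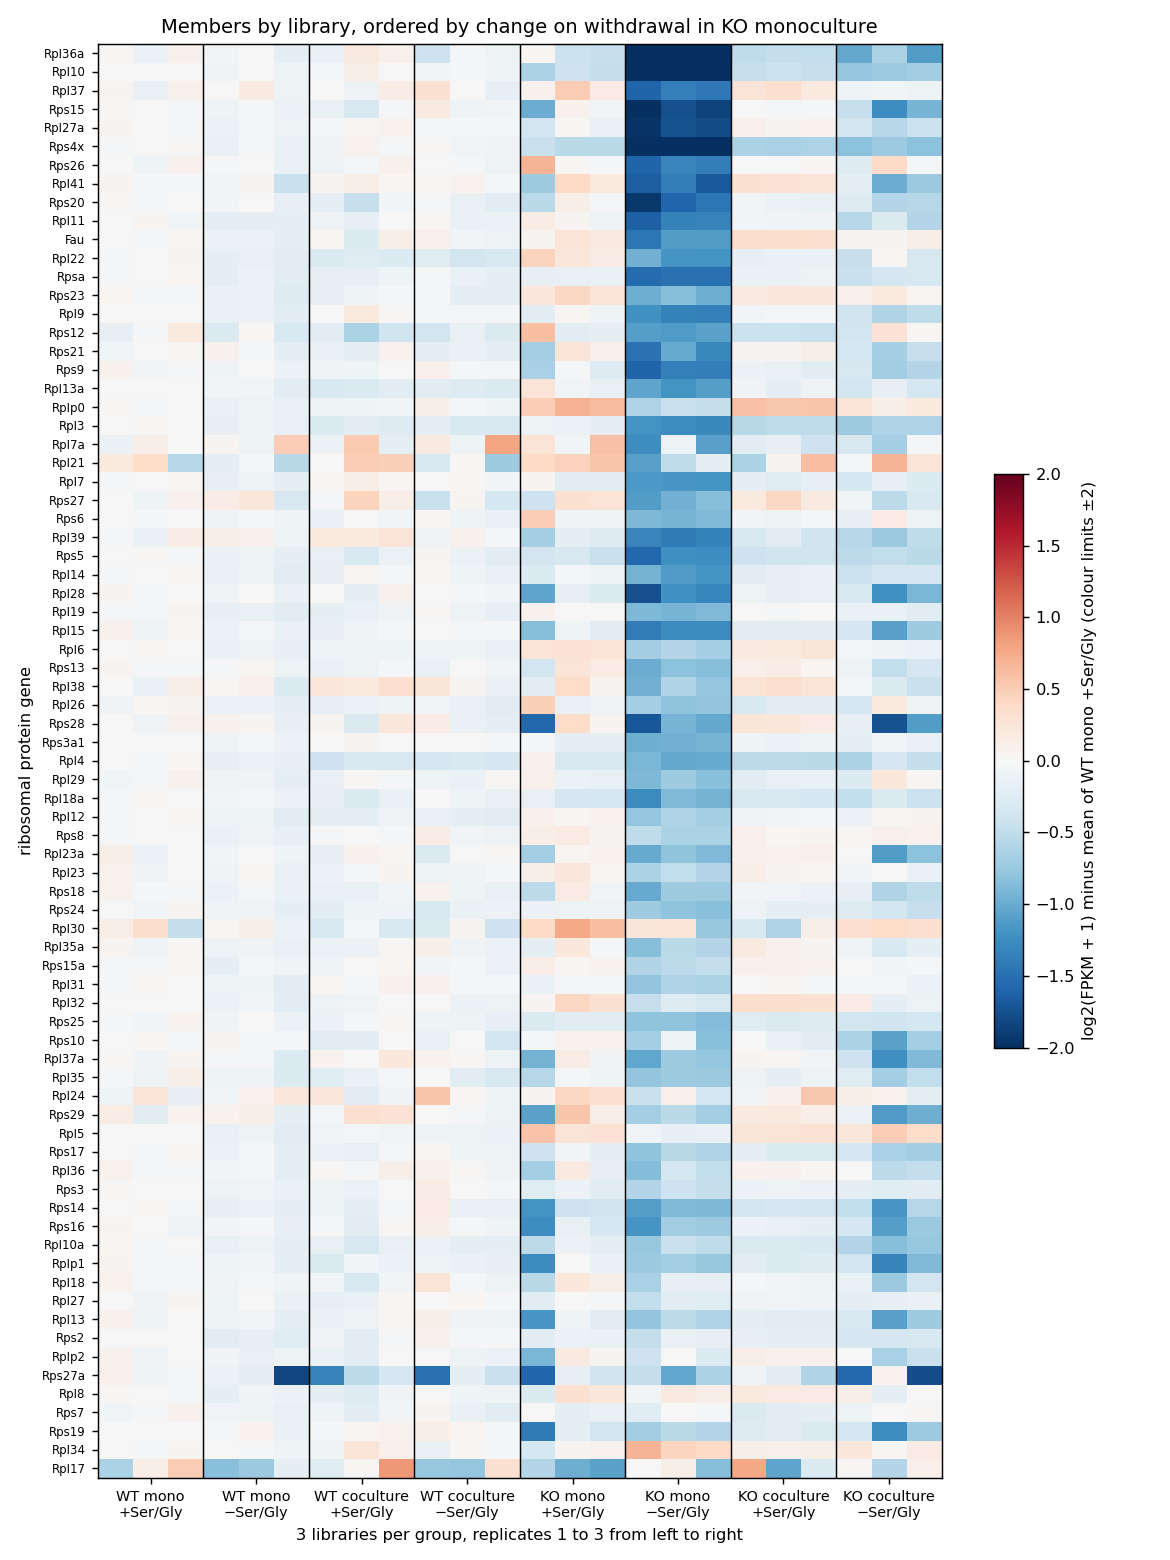
Ribosomal protein genes (lines, 1 gene each, ordered by their change on withdrawal in KO monoculture) in the 24 libraries (columns, by group), as log2(FPKM + 1) minus the gene's mean in WT monocultures with serine and glycine; colours end at -2 and 2. The 3 starved KO monocultures are below 0 in most lines, Rpl34 is above 0 in all 3, and the starved KO cocultures lie between them and the rest.

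Without withdrawal, KO and WT cells differed in single members and not in 1 direction. In monoculture with serine and glycine 6 members were higher and 15 lower in KO, with a median of -0.12, where 42.7% of tested genes were called (21.5% higher, 21.1% lower); with a correction for gene length, 9 were higher and 13 lower. Rplp0 was higher, at 3899, 4456 and 4307 FPKM in KO and 2813, 2709 and 2773 in WT (0.61 ± 0.06, adjusted p = 1.21e-07), without overlap. Under quantile normalization that difference was 0.17 (adjusted p = 0.479). Also higher were Rpl5 (0.37), Rps23 (0.30) and Rpl22 (0.27), the last losing its call without KO replicate 1 (0.19, adjusted p = 0.118). Lower were Rps14, whose loss in the human 5q- syndrome impairs small-subunit assembly (-0.67), Rps19 (-0.66), Rps16 (-0.58) and Rpl10 (-0.51). Rps19 was at 79.2, 185 and 165 FPKM in KO and at 213 ± 0.312 in WT, with KO replicate 1 far below the other 2. Without that library the difference was -0.40 for Rps14, which still passed, -0.28 for Rps19 (adjusted p = 0.149) and -0.25 for Rps16 (0.236), and the median over members was -0.020 with 9 higher and 14 lower. Rps16 also lost its call without any 1 of the WT libraries. Rps4x was lower in every KO library (difference of -0.50 ± 0.05, adjusted p = 1.35e-07), and Rps3, Rpsa and Rpl3 were lower by small amounts (-0.19, -0.15 and -0.13).

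In coculture with serine and glycine 7 members were higher and 8 lower in KO, with a median of 0.01, where 43.9% of tested genes were called (21.8% higher, 22% lower); under quantile normalization 5 were higher and 13 lower. Rplp0 (0.63, and 0.08 under quantile normalization with adjusted p = 0.776), Rpl32 (0.39), Fau (0.38) and Rpl8 (0.36) led the higher ones. Fau was at 1899, 1895 and 1864 FPKM in KO cocultures and 1513, 1236 and 1609.5 in WT cocultures, and the KO libraries were above all other libraries. Rps4x (-0.62), Rpl36a (-0.54), Rpl39 (-0.53) and Rpl10 (-0.48) led the lower ones.

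Without serine and glycine, most called members were lower in KO. In monoculture 65 of 78 were lower in KO and 1 higher, with a median of -0.73, where 73.6% of tested genes were called (36.3% lower, 37.4% higher). In 66 members the 3 KO libraries were below the 3 WT libraries, against 38.8% of tested genes. Rpl36a (-2.41), Rpl10 (-2.25), Rps4x (-2.06) and Rps15 (-1.92) had the largest differences, and Rpl34 (0.53) was the higher one. Rpl10 was at 1104, 1159 and 1079.9 FPKM in WT against 245, 229 and 229 in KO. In coculture 38 (48.7%) were lower and 4 (5.13%) higher, with a median of -0.29, where 53.6% of tested genes were called (27.4% lower, 26.3% higher). The share of members called there in either direction, 53.8%, was near that of all tested genes. Rps28 (-0.94), Rps15 (-0.89), Rpl37a (-0.84) and Rps19 (-0.81) were the furthest below WT. The call of Rps28 was lost in 8 of 14 alternatives. Among these were leaving out replicate 2 of the KO cocultures (-0.58, adjusted p = 0.239) and the replicate number as a block (adjusted p = 0.0563). Rpl5 (0.47), Rps23 (0.25), Rplp0 (0.20) and Rpl12 (0.18) were higher; Rplp0 lost that call in 4 alternatives and Rpl12 in 2.

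Of the 4 members on the X chromosome, Rpl10, Rpl36a, Rpl39 and Rps4x, 3 were called lower in KO than in WT in monoculture with serine and glycine, and all 4 in the other 3 conditions. Among all tested genes, 21.1% (monoculture) and 22% (coculture) were called lower with serine and glycine, and 36.3% and 27.4% without. The other 376 tested X-linked genes were also lower in KO, with medians of -0.35 in monoculture and -0.38 in coculture with serine and glycine, and -0.27 in both cultures without, the lowest of all chromosomes each time. The 4 members had medians of -0.44, -0.53, -2.15 (monoculture) and -0.71 (coculture) in the same order of conditions. The part of the chromosome-wide difference in the members' values was not tested. On withdrawal in KO monoculture, by contrast, the other X-linked genes had a median of -0.0037 with 33.5% lower, while the 4 members had -1.72 and all 4 fell. Rpl39 at chrX:37082520-37085402 was at 119, 166 and 159 FPKM with and 75.1, 70.9 and 73.4 without serine and glycine. The 78 genes lie on 20 chromosomes, most often chromosome 7 with 14.

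Hepatocytes went with higher levels in starved KO cells. Of 78 members 52 were higher and 1 lower in coculture than in monoculture, with a median of 0.58, where 71.3% of tested genes were called (35% higher, 36.3% lower); under quantile normalization 43 were higher and 9 lower. Rpl10 was at 245, 229 and 229 FPKM in monoculture and 675, 700.5 and 711 in coculture (1.57 ± 0.055, adjusted p = 3.81e-15). Rpl36a was at 55.5, 47.5 and 45.3 and 138, 182 and 129 FPKM (1.57 ± 0.14, adjusted p = 4.72e-09). In neither gene did a starved coculture reach the KO libraries with serine and glycine. Rps26 (1.46), Rpl37 (1.39) and Fau (1.31 ± 0.092, adjusted p = 1.57e-10) were also higher. Fau, at 1541, 1549 and 1618 FPKM in coculture against 543, 682 and 686 in monoculture, came within the range of WT cocultures (1236 to 1609.5) with 1 library just above. Rpl34 was the 1 lower member, at 414, 361 and 399 FPKM in coculture (-0.36 ± 0.10, adjusted p = 0.0037). The summed FPKM of the 15 hepatocyte markers was 1.30 to 2.22 in these cocultures and 0.453 to 1.09 in these monocultures, both within or below the 0.964 to 2.59 of KO monocultures with serine and glycine, and 10 of the 15 were at 0 in all 3 starved cocultures.

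With serine and glycine present, coculture changed few members. In WT cells 5 were lower and 0 higher, with a median of -0.07, where 31.2% of tested genes were called (14.9% lower, 16.3% higher): Rpl4 (-0.35), Rpl13a (-0.27), Rpl22 (-0.26), Rpl3 (-0.26) and Rpsa (-0.14). Rpl22 lost its call whichever library was left out, and Rpl13a without WT coculture replicate 1 or 2. That count was 2 without WT coculture replicate 1 or 2 and 3 without WT monoculture replicate 2 or 3; under quantile normalization 23 were lower and 1 higher. In KO cells 7 were lower and 1 higher, with a median of 0.02, where 40% of tested genes were called (19.9% lower, 20.1% higher). Rpl30 (-0.86), Rps12 (-0.50), Rpl22 (-0.42), Rpl3 (-0.40), Rpl4 (-0.36), Rpl26 (-0.33) and Rps4x (-0.13) were lower. Rps12 was at 675, 378 and 391 FPKM in monoculture and 329, 329 and 327 in coculture, and lost its call without KO monoculture replicate 1 (-0.23, adjusted p = 0.271) and without any 1 of the KO cocultures. Rpl27a was called higher (0.25), but not without that library (0.14, adjusted p = 0.111), and it was slightly lower under quantile normalization (-0.0415, adjusted p = 0.681). The KO count depended on single libraries as well: it was 4 without KO monoculture replicate 1, 15 (8 higher, 7 lower) without replicate 2, and 5 without KO coculture replicate 1 or 3. Under quantile normalization 33 were lower and 2 higher, and with limma-voom 17 were lower. In WT cells without serine and glycine, Rps2 (0.22) and Rpl31 (0.16) were higher and 0 lower, with a median of 0.04, where 28.1% were called (14.9% higher, 13.1% lower). That pair of calls rests on the settings: the count was 0 without WT monoculture replicate 1 or 3, 1 (higher) without WT coculture replicate 2 or 3 and 1 (lower) without replicate 1, and under quantile normalization 0 were higher and 19 lower.

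The withdrawal change in KO coculture minus that in KO monoculture was called positive in 46 of 78 members and negative in 1, with a median of 0.58, where 57.7% of tested genes were called (27.9% positive, 29.8% negative). Rpl36a (1.78 ± 0.20, adjusted p = 2.57e-07), Rps26 (1.67) and Rps12 (1.59) had the largest positive values and Rpl34 (-0.55) the negative one. The same difference in WT cells was called in 0 of 78 members by limma, with 6 at an unadjusted p under 0.05, 0 by limma-voom, a median of 0.11 and 1.67% of tested genes called (0.423% positive, 1.24% negative).

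Other genes of translation were read from lists beside the members. Of 22 tested translation factors and other TOP mRNAs, 18 fell and 3 rose on withdrawal in KO monoculture, with a median of -0.90, in the comparison where 70.8% of all tested genes were called. Eif4b, which aids the helicase of translation initiation, went from 386 ± 1.81 to 88.0 ± 1.70 FPKM (SD, n = 3; -2.12 ± 0.036, adjusted p = 1.47e-19). Nap1l1, a histone chaperone with a TOP mRNA, changed by -1.64, Eef2, the translocation factor, by -1.62, and Eef1a1, which brings aminoacyl-tRNA, by -1.52, the last from 8298 ± 406 to 2898 ± 101 FPKM. Ribosomal protein paralogs and related genes outside the naming rule were split, with 3 of 5 tested lower and 2 higher: Rpl22l1 (-2.13) fell, whereas Rpl7l1 (1.92) and Rps27l (0.94) rose. In the other direction, 39 of 52 tested genes of ribosome assembly and RNA polymerase I rose and 5 fell, with a median of 0.57. Bop1, a factor of large-subunit rRNA processing, went from 18.5 ± 2.56 to 62.9 ± 7.04 FPKM (1.72 ± 0.12, adjusted p = 9.06e-11), and Nop10, of the pseudouridylation particles, changed by 1.49. Of 79 tested genes named as mitochondrial ribosomal proteins, which include the pseudogenes Mrpl23-ps1 and Mrps36-ps1, 53 rose and 4 fell, with a median of 0.44, among them Mrps18a (1.83) and Mrps18c (1.77). The mTORC1 list was even, with 15 higher and 16 lower of 39 and a median of 0.00; Eef2k (-1.51), the kinase that inhibits Eef2, and Ddit4 (-1.30), an mTORC1 inhibitor, fell. Of 12 tested p53 targets and regulators 4 rose and 3 fell, with Cdkn1a at 1.12 and Ccng1 at -1.03.

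On withdrawal in KO coculture, where 14.4% of all tested genes were called lower and 15.5% higher, 11 of the 22 factors fell and 1 rose (median -0.14; Eif3k -0.50), while 13 of 52 assembly genes fell and 3 rose (median -0.13; Nop10 -0.65, Polr1b -0.43), and 13 of 79 mitochondrial ribosomal protein genes fell and 1 rose (median -0.10), a share near that of all tested genes. In WT monoculture 0 of the 22 factors, 2 assembly genes (both higher) and 1 mitochondrial ribosomal protein gene (lower) passed, and in WT coculture 0 of each. In starved KO cells, coculture against monoculture, where 35% of tested genes were called higher and 36.3% lower, gave 15 higher and 2 lower of the 22 factors (median 0.54; Eif4b 1.75, Eef1a1 1.30). In the same comparison 46 of 52 assembly genes were lower and 1 higher (median -0.99; Rrp12 -2.45, Bop1 -2.33), and 63 of 79 mitochondrial ribosomal protein genes were lower and 3 higher (median -0.62; Mrpl4 -2.08, Mrpl20 -1.77). Rpl7l1 (-2.01) and Rps27l (-1.05) were lower and Rpl22l1 (1.03) higher there. That comparison shares the starved KO monocultures with withdrawal in KO monoculture. KO against WT in starved monoculture, which shares them too and where 36.3% of tested genes were called lower and 37.4% higher, gave 13 lower and 3 higher of the factors (median -0.82), 40 higher and 4 lower of the assembly genes (0.78), and 61 higher and 7 lower of the mitochondrial ribosomal protein genes (0.65).

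**Figure D5:**
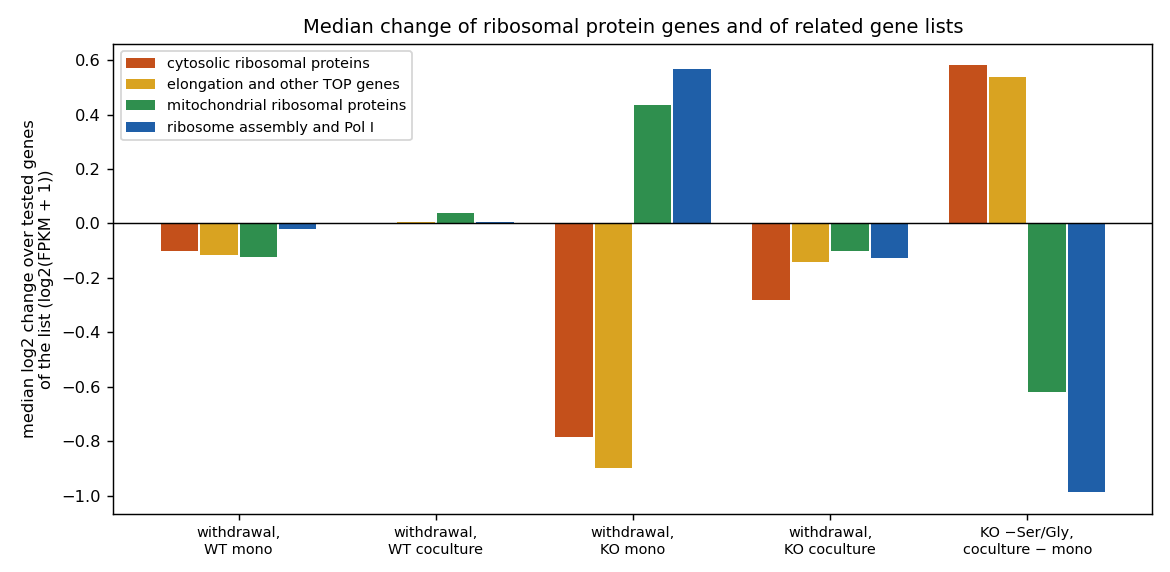
Median change on the log2(FPKM + 1) scale (y axis) of 4 gene lists, namely the 78 ribosomal protein genes, 22 translation factors and TOP mRNAs, 79 mitochondrial ribosomal protein genes and 52 assembly and RNA polymerase I genes, in 5 comparisons (x axis). On withdrawal in KO monoculture the first pair of lists is below 0 (-0.78 and -0.90) and the second above (0.44 and 0.57), and in starved KO cells coculture minus monoculture shows 0.58 and 0.54 against -0.62 and -0.99.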

How the data were processed

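RNA of 24 libraries, 3 for each of 8 groups, was compared in 1 table of FPKM per gene, the unit the authors deposited; alignment with HISAT2 to GRCm38/mm10 is named in the submitters' processing notes. No source here gives the counting tool, annotation release, strand setting or scaling total. To recover reads, FPKM was multiplied by gene length and divided by a step fitted in each library. The result was whole (within 0.01) for 100% of values, zeros included. The scaling total was 0.969 to 1.07 times each library's gene reads, with 15740081 to 23479425 reads per library. No 2 libraries were identical, and 0 other sample columns were present.

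The 12061 of 54532 genes that reached 1 FPKM in 3 or more libraries were tested with limma 3.58.1 in R 4.3.3 on log2(FPKM + 1), with 8 group means, 16 residual degrees of freedom, a mean-variance trend and two-sided tests. This scale understates the change of low genes. P-values were adjusted by Benjamini-Hochberg over all tested genes of each of 12 comparisons of 2 groups and 4 interactions, and a gene was called at an adjusted p under 0.05. The scripts were tested on simulated data.

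The members, the other gene lists and the rule for named genes were chosen with earlier results of these data known. The rule named the 5 highest and 5 lowest members, the 4 largest called rises and falls of each comparison with at least 5 calls, the 3 largest of each interaction, members of set roles, and the 2 largest called genes of each related list. Further members in short lists were named after their values were seen, and some genes the rule names are not reported here.

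Alternatives were a pseudocount of 0.1, no filter, quantile normalization, median-of-ratios scaling, limma-voom on recovered reads, a length correction, a replicate block, a fit of the compared groups only and leaving out each library. Leaving out replicate 1 of both KO monoculture groups together was added after seeing the data.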

Additional observations from a re-analysis of the deposited data

Results flagged for a closer look

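Differences between responses were tested member by member. The withdrawal response differed between KO and WT monocultures in 55 of the 78 ribosomal protein genes (70.5%), where 61.2% of all tested genes were called. Negative calls made up 69.2% of members and 29.8% of tested genes. The largest differences were in Rpl36a (-2.13 on the log2(FPKM + 1) scale), Rpl37 (-1.74) and Rpl10 (-1.74), with a positive one in Rpl34 (0.61). In coculture the genotypes' responses differed in 9 (11.5%), a smaller share than the 14.4% of all tested genes called. These included Rps15 (-1.03) and Rpl27a (-0.48), and all 9 were negative, where 6.38% of tested genes were called negative. The count of 9 ran from 5 to 27 when single libraries were left out. Between KO coculture and KO monoculture the response differed in 47 (60.3%), a share near the 57.7% of all tested genes called. Positive calls made up 59.0% of members and 27.9% of tested genes. Rpl36a was at 1.78, Rps26 at 1.67, Rps12 at 1.59 and Rpl34 at -0.55. These differences share libraries and are not separate evidence.

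Listed pseudogene copies, which are not among the members, held most of the reads of a pair of members and their copies together, at 98.9% for Rps10 and 75.4% for Rpl17. No control level exists for this share.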

How the results depend on the processing

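Calls of members on withdrawal in KO monoculture, between genotypes in starved cells, and in coculture against monoculture of starved KO cells stayed within 1.5 times of the reported counts under every alternative run. The small counts moved. With only the compared groups in the fit, KO minus WT gave 8 calls in monoculture and 34 in coculture with serine and glycine. That fit gave 2 for withdrawal in WT monoculture and 19 in KO coculture, and for coculture minus monoculture 11 (WT) and 3 (KO) with and 5 (WT) without serine and glycine. The interactions gave 16 (genotype, coculture) and 1 (culture, WT). Without a filter, withdrawal in KO coculture gave 22, the coculture effects 3 (WT) and 5 (KO) with and 0 (WT) without serine and glycine, and the genotype interaction in coculture 4. Quantile normalization gave 24, 35 and 19 for the same coculture effects, the last turned to mostly lower, and 5 for that interaction. limma-voom gave 19, 17 and 6, the last turned to mostly lower. The length correction gave 17 (KO) and 1 (WT without, lower), and leaving out both KO replicate 1 libraries 4 (KO with). Leaving out each library in turn gave 18 to 43 for withdrawal in KO coculture, 2 to 5, 4 to 15 and 0 to 2 for the coculture effects (WT with, KO with, WT without), and 5 to 27 for the genotype interaction in coculture. The 15, without KO monoculture replicate 2 with serine and glycine, were 8 higher and 7 lower. Without WT coculture replicate 1 lacking both amino acids the count was 1, lower. The mean scaling total over gene reads was 1.0472 (WT with), 1.0643 (WT without) and 1.0281 (KO with) in monocultures. In the matching cocultures it was 0.9866, 0.9996 and 0.9713. The median coculture effect over members, in the same order, was -0.0708, 0.0401 and 0.0185 in the main fit. With limma-voom that median was -0.1589, -0.0499 and -0.0652. The part of the scaling total in these shifts was not tested, nor was any other cause.

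With the replicate number as a block, the coculture effects gave 5 (KO with) and 1 (WT without), and withdrawal in KO coculture 32. The block moved no other count by over 1.5 times. Over 84 same-number pairs the correlation of deviations from the group means ran from -0.628 to 0.401, with a median of -0.0085. Different numbers had a median of 0.0041. Of the same-number pairs 9 were over 0.1, and 5 of 24 libraries correlated best with their own number. These values come from means of 3 libraries without a test, so they cannot decide whether the numbers pair libraries.

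As a share of summed FPKM, which by construction weights short genes more, the members took 16.7, 15.7, 15.2 and 15.5% in WT (monoculture with and without serine and glycine, coculture with and without) and 16.2, 9.57, 15.2 and 13.5% in KO. Of 88 results for named members 67 kept direction and call in every alternative, 21 lost a call in at least 1, and Rpl27a in KO coculture minus monoculture with serine and glycine turned to -0.0415 under quantile normalization. Depth as a limit on single members was not tested.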
